A study of Mus musculus with 18 samples.

Results

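The circadian clock genes described here are 10 genes, chosen by symbol from the 28442 genes of the deposited table: the period genes Per1, Per2 and Per3, the cryptochromes Cry1 and Cry2, the transcription factors Dbp, Tef, Clock and Npas2, and the clock repressor Ciart. No measured value entered that choice, although the list was drawn up with earlier results of these data known. Bulk poly-A RNA was sequenced from 6 non-tumoral livers and 12 advanced liver tumors of male Alb-R26Met mice, F1 C57:129Sv animals. All 18 samples carry the same alleles, that is, Cre under the Alb promoter, which is active in hepatocytes, and a chimeric mouse-human Met transgene at the Rosa26 locus that this Cre switches on. The livers were those of mice in which no tumor had formed, so they are no wild-type control. Mice were 52 to 71 weeks old for livers and 49 to 72 weeks old for tumors. Tumors 11 and 12 grew in the same animal, so the 12 tumors represent 11 mice.

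The mammalian clock is a loop of transcription and translation that runs in nearly every cell. CLOCK or its relative NPAS2 pairs with BMAL1 and binds E-box sequences, which switches on the Per and Cry genes, and PER and CRY proteins then enter the nucleus and block that pair. A further loop, in which NR1D1 and NR1D2 repress and ROR factors activate Bmal1 and Npas2, sets these genes in the opposite phase to Dbp, Nr1d1 and Per3, and the PAR bZIP factors DBP, TEF and HLF carry the rhythm to output genes at D-box sequences, where NFIL3 opposes them. In liver the clock drives much of the daily rhythm of bile acid, lipid and xenobiotic metabolism, so the level of a clock gene depends on the hour at which the tissue was taken, and that hour is not in the sample labels.

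Promoter windows of 5 members are shown because they hold a match to the E-box CACGTG or the D-box TTATGTAA. The window of Cry2, which held CACGTT alone, is not shown. RefSeq windows on GRCm38.p6, from 250 bases before to 50 bases after a transcription start, were matched to 9 of the 10 members, in 13 windows. Per2 had no window and was not searched. The E-box CACGTG, the related CACGTT and the D-box TTATGTAA were searched on both strands and are in capitals, and none of these matches overlaps another. On the opposite strand CACGTT reads AACGTG.
Ciart, chr3:95882179-95882478, minus strand: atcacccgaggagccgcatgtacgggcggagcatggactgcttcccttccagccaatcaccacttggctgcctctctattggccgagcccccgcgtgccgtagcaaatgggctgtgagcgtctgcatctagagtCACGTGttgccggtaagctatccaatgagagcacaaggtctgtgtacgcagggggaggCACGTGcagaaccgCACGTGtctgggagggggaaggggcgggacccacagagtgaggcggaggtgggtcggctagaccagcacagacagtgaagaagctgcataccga
Cry1, chr10:85185005-85185304, minus strand: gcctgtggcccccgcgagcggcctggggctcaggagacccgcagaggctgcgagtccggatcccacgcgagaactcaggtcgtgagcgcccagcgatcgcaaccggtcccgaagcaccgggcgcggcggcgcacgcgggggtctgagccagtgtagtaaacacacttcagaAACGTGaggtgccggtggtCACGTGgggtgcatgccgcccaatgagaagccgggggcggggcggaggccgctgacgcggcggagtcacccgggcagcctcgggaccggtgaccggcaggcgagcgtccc
Per1, first start, chr11:69098699-69098998, plus strand: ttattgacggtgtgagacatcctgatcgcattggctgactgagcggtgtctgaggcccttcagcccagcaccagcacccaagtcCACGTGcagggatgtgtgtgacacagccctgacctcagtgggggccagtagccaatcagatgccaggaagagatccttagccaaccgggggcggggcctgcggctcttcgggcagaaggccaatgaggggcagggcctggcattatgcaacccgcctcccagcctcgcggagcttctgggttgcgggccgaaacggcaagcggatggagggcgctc
Tef, first start, chr15:81802423-81802722, plus strand: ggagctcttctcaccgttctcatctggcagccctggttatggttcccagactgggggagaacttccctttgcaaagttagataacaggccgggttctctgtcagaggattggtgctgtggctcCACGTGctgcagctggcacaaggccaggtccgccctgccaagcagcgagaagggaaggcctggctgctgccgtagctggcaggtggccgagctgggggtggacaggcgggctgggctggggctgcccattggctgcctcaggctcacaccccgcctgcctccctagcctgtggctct
Tef, second start, chr15:81811164-81811463, plus strand: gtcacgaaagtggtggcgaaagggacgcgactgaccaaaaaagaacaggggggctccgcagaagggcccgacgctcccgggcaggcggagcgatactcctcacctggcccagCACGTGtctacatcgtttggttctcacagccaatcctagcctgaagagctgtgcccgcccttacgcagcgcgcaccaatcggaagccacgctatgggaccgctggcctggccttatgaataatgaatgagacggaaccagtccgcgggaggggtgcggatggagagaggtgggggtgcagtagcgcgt
Per3, chr4:151044616-151044915, minus strand: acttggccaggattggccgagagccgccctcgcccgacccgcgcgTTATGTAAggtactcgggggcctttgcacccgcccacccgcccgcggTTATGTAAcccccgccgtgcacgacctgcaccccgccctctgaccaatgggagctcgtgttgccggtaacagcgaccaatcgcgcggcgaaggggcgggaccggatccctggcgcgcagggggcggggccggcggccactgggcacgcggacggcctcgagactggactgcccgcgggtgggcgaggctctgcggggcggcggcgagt

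Ciart held 3 copies of CACGTG, beginning 116, 58 and 44 bases before its start. Cry1, Per1 and Tef held 1 copy in each window shown, so that 4 of the 9 members, in 5 of their 13 windows, had this E-box, which 7.15% of all 32851 promoter windows hold. CACGTT was present in Cry1 and Cry2 and in 4.685% of all windows. The D-box TTATGTAA occurred in Per3 alone among the 9 members searched, in 2 copies that begin 205 and 158 bases before the start, and in 0.938% of all windows. The D-box variant TTACGTAA, the NR1D1 and ROR element TAGGTCA and the cAMP response element TGACGTCA matched none of the members' windows. These are matches of letters and not measured binding.

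The values are read here as TPM, a transcript abundance corrected for gene length, so that levels of different genes can be set side by side. They were deposited in whole numbers, and a listed 0 can be any TPM below the rounding point. They were divided by a factor per sample and are called scaled TPM. The number of reads under each value is unknown. The gene Siglece had the highest value in every sample, at 17.9% (liver 1) to 29.5% (liver 5) of the total in livers. In tumors other than tumor 2 it took 21.5% (tumor 8) to 53.4% (tumor 11), with 41.3% in tumor 7. In tumor 2 Siglece took 82.856% of the total, 8718 genes were above 0 and 1 TPM became 5.14 scaled TPM, which makes the clock gene values of tumor 2 coarse. Of the remaining samples, those whose names carry the tag E20 had 12584 to 13819 genes above 0 and those with the tag E19 had 11508 to 12394. What the tags stand for is not given in the sources used here. Defining hepatocyte genes were high in both groups, with Alb at 23590 scaled TPM in livers and 35720 in tumors on average, whereas Cyp2e1 was lower in tumors (log2 fold change −2.82, limma adjusted p = 0.00174) and Apoa1 higher (0.915, adjusted p = 0.013).

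All 10 members passed the filter of at least 1 scaled TPM in at least 6 samples. Their highest mean level in livers was that of Tef, 112 ± 38.7 scaled TPM (SD, n = 6), and the lowest that of Npas2, 0.92 ± 0.61. The other members lay between 5.69 (Ciart) and 15.5 (Per1) scaled TPM, and by their SDs neighbors in this order, from Per1 over Cry2, Cry1, Clock, Per3, Per2 and Dbp down to Ciart, did not stand apart. In tumors Tef was again the highest at 53.9 ± 25.8 scaled TPM (SD, n = 12), and Ciart was the lowest at 1.06 ± 0.737. Npas2, the lowest in livers, had a mean of 5.42 ± 4.38 in tumors.

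**Figure D1:**
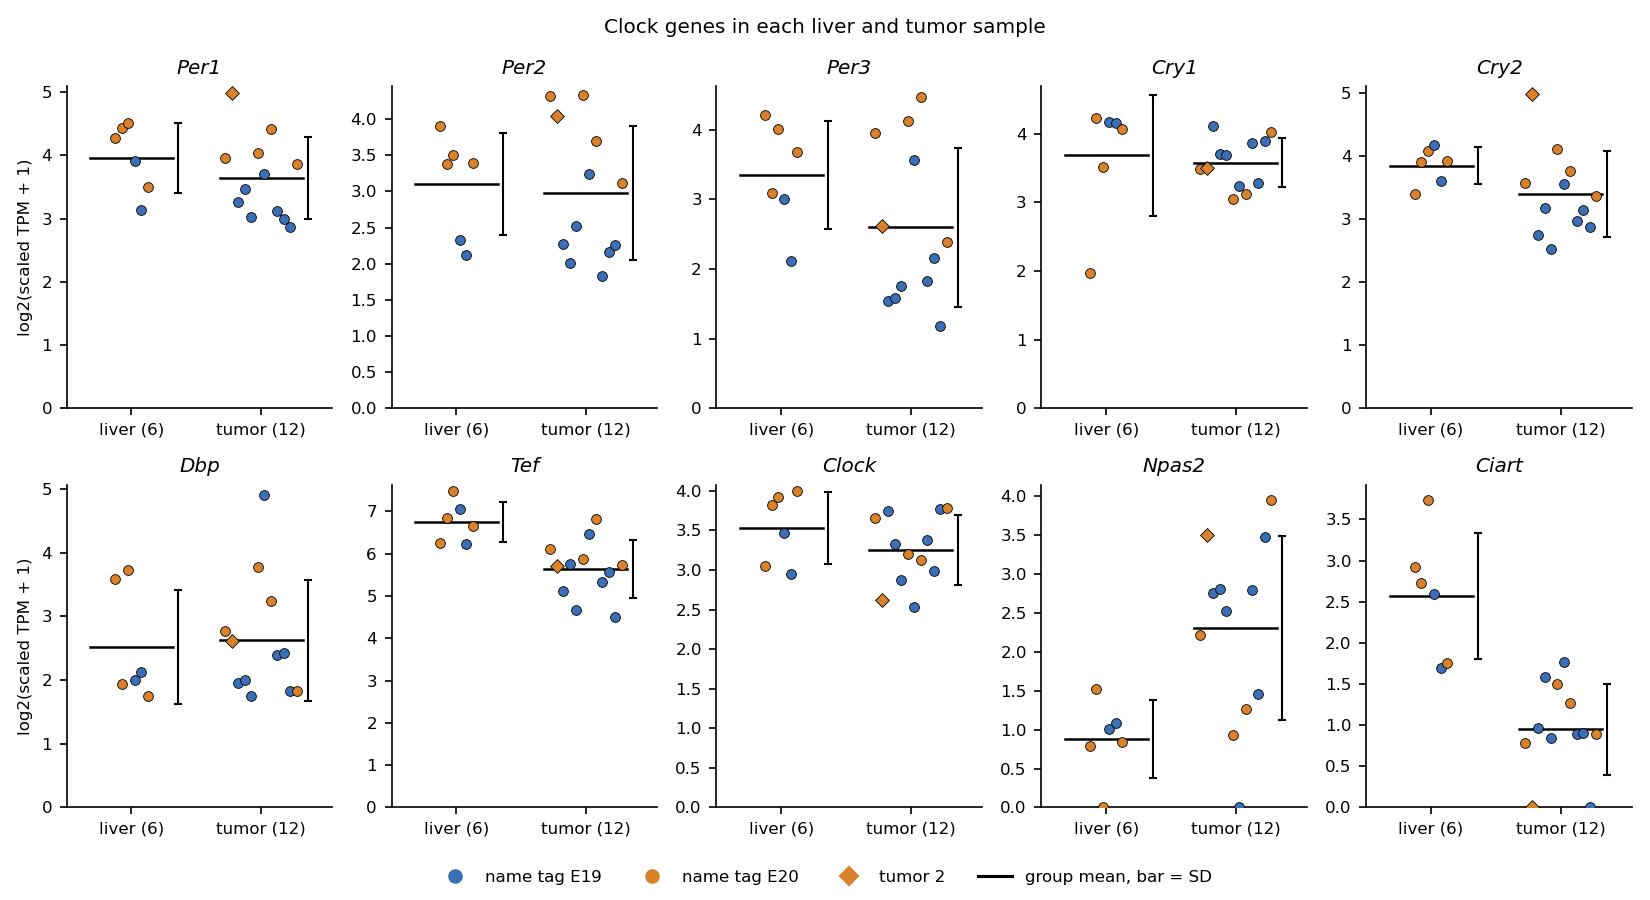
Level of each of the 10 clock genes as log2(scaled TPM + 1), with 1 point per sample, blue for the name tag E19 and orange for E20, a diamond for tumor 2, a line at the group mean and a bar of 1 SD to its right. Ciart and Tef lie lower in tumors and Npas2 higher, and in Per1, Per2 and Per3 most orange points lie above the blue ones within both groups.

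Tumors were compared with livers to ask which clock genes differ between them. Ciart and Tef were lower in tumors and Npas2 was higher. Thus 3 of the 10 members were called at an adjusted p under 0.05, 1 higher and 2 lower, where 19% of the 11708 genes tested were called (9.77% higher and 9.28% lower). With 10 members, 3 calls lie close to that background, so the count does not set the members apart as a group. The median log2 fold change was −0.30 over the members and −0.06 over all genes tested. Bulk samples cannot tell fewer cells of a type from less RNA per cell.

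**Figure D2:**
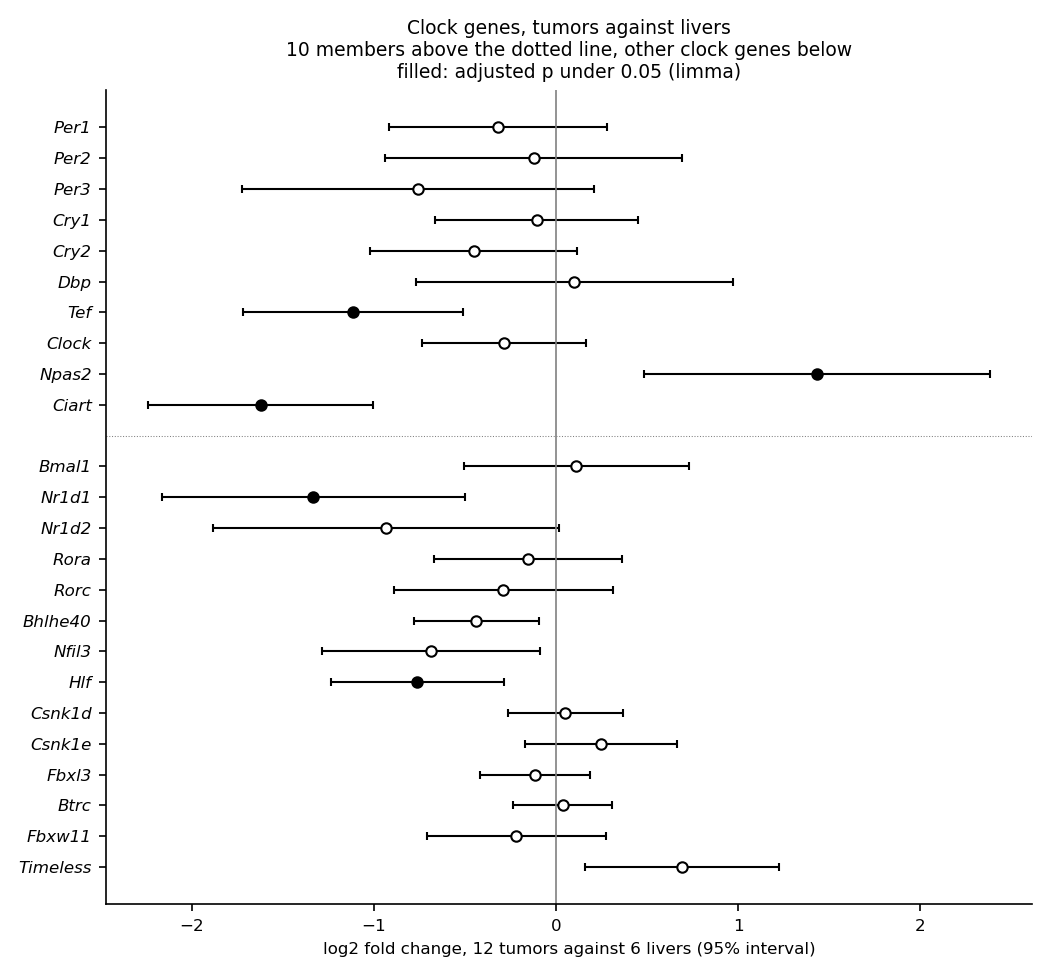
Log2 fold change of each clock gene, 12 tumors against 6 livers, with its 95% interval, for the 10 members and the 14 other clock genes tested. Filled circles, with an adjusted p under 0.05 in limma, are Ciart, Tef, Nr1d1 and Hlf below 0 and Npas2 above 0.

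Ciart (chromosome 3, 95878500 to 95882257, GRCm38.p6) encodes a repressor that is recruited to the CLOCK and BMAL1 pair. In livers its lowest, median and highest values were 2.23, 5.33 and 12.3 scaled TPM, and in tumors they were 0, 0.861 and 2.40. Of the 12 tumors 11 lay below every liver, and only tumor 7, at 2.40, reached into the range of the livers. Tumors 2 and 11 are listed at 0. The log2 fold change was −1.62 ± 0.30 (SE, limma adjusted p = 0.000579), on the log2(scaled TPM + 1) scale, which understates changes of low genes. Within the tags it was −1.15 (adjusted p = 0.0964) in E19 samples and −1.90 (adjusted p = 0.0233) in E20 samples by limma. The deposited tumor values were 0, 1 or 2 TPM, so rounding limits how finely these tumors can be ordered.

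Tef (chromosome 15, 81802673 to 81826863) encodes a D-box activator of detoxification genes. Its lowest, median and highest values were 73.7, 107 and 177 scaled TPM in livers and 21.5, 51.6 and 112 in tumors. Only tumors 7, at 87.8, and 8, at 112, reached the range of the livers, and the other 10 lay below it. The log2 fold change was −1.12 ± 0.29 (SE, limma adjusted p = 0.00944). In E19 samples it was −1.30 and in E20 samples −0.76, and neither was called by limma (adjusted p = 0.0921 and 0.217). Without scaling between samples the log2 fold change was −1.31 and was no longer called (limma adjusted p = 0.0543).

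Npas2 (chromosome 1, 39193702 to 39363240) encodes the partner of BMAL1 that stands in for CLOCK. In livers its lowest, median and highest values were 0, 0.897 and 1.88 scaled TPM, and in tumors they were 0, 5.24 and 14.4. In 8 of the 12 tumors Npas2 was above every liver, while tumors 6, 7, 8 and 10, at 0.911, 0, 1.40 and 1.74, overlapped them. The highest values were those of tumors 12, 2 and 11 (14.4, 10.3 and 10.1 scaled TPM). That of tumor 2 stands for 2 deposited TPM, the same deposited value as in tumors 8 and 10 and in liver 2. The log2 fold change was 1.43 ± 0.46 (SE, limma adjusted p = 0.0312). It was 1.22 in E19 samples and 1.58 in E20 samples, neither called by limma (adjusted p = 0.296 and 0.187). The call was lost with a pseudocount of 0.1 (log2 fold change 2.12, adjusted p = 0.0945) and, by limma, without liver 3 (adjusted p = 0.0901), liver 4 (0.0542), liver 6 (0.0602) or tumor 11 (0.0516).

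Clock (chromosome 5, 76209868 to 76305603), whose protein does the same work as NPAS2, ran from 6.70 to 15.02 scaled TPM in livers (median 11.6) and from 4.81 to 12.7 in tumors (median 8.62). Its log2 fold change was −0.28 with a 95% interval from −0.74 to 0.17 (limma adjusted p = 0.407). Of the tumors 9 lay within the range of the livers.

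The period genes encode the PER part of the repressor complex. Per1 (chromosome 11, 69095108 to 69109965) had a lowest, median and highest value of 7.82, 16.2 and 21.7 scaled TPM in livers and of 6.33, 11.03 and 30.8 in tumors, and the log2 fold change was −0.32 (95% interval −0.91 to 0.28, limma adjusted p = 0.496). Per2 (chromosome 1, 91415977 to 91459351) had 3.35, 9.43 and 13.9 in livers and 2.56, 6.19 and 19.1 in tumors. Its log2 fold change was −0.12 (95% interval −0.94 to 0.69, limma adjusted p = 0.871), and with the tag in the model it was 0.25. Per3 (chromosome 4, 150997018 to 151044707) had 3.35, 9.68 and 17.6 in livers and 1.27, 3.86 and 21.1 in tumors, a log2 fold change of −0.76 (95% interval −1.72 to 0.21, limma adjusted p = 0.286). The groups overlapped in all 3 genes, and the highest Per1 value, in tumor 2, stands for 6 deposited TPM.

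The cryptochromes encode the CRY part of the complex. Cry1 (chromosome 10, 85131700 to 85185054) ran from 2.93 to 17.8 scaled TPM in livers (median 16.3) and from 7.29 to 16.2 in tumors (median 11.1). All 12 tumors lay within the range of the livers, whose lower end was liver 1 alone, and the log2 fold change was −0.11 (95% interval −0.67 to 0.45, limma adjusted p = 0.839). Cry2 (chromosome 2, 92403646 to 92434085) ran from 9.52 to 17.1 in livers (median 14.2) and from 4.74 to 30.8 in tumors (median 8.68). In Cry2 7 tumors lay below every liver and 1, tumor 2, above. The log2 fold change was −0.45 (limma adjusted p = 0.280), and it was called without tumor 2 (−0.59, adjusted p = 0.0379) and with sample quality weights (−0.73, adjusted p = 0.00489).

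Dbp (chromosome 7, 45705100 to 45710203), one of the most strongly rhythmic transcripts of liver and a D-box activator, had a lowest, median and highest value of 2.37, 3.18 and 12.3 scaled TPM in livers and of 2.37, 4.31 and 28.9 in tumors. Livers 1 and 3, at 10.98 and 12.3, stood above the other 4, which were between 2.37 and 3.35. The highest tumors were 7, 6 and 8, at 28.9, 12.8 and 8.43. The other 9 ran from 2.37 to 5.81, without so wide a gap below tumor 8. The log2 fold change was 0.10 (95% interval −0.77 to 0.97, limma adjusted p = 0.901).

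Members varied between animals of 1 group. Dbp, Cry1, Per3 and Ciart had SDs of 0.89, 0.88, 0.77 and 0.77 on the log2 scale across livers, above those of 96.5%, 96.4%, 94.4% and 94.3% of the genes tested. The least variable member in livers, Cry2, had an SD above that of 35.8% of the genes. Across tumors Npas2, Per3, Dbp and Per2 had SDs of 1.18, 1.14, 0.95 and 0.93, above those of 97.5%, 97.1%, 93.8% and 93.2% of the genes. Cry1 and Clock were the least variable there, above 25.3% and 41.1% of the genes, and without tumor 2 they were above 54.7% and 61.8%. A limma test of absolute deviations from the group median, which asks whether the spread differs between tumors and livers, called 0 of the 10 members, where 0.0% of all genes were called. At an unadjusted p under 0.05 it passed 0 members and 369 genes.

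Other genes of the clock were taken from a list of 17, of which 14 were tested. Of these 0 were called higher and 2 lower in tumors, against 9.77% and 9.28% of all genes. Nr1d1, which encodes the repressor of Bmal1, was 6.72 ± 6.54 scaled TPM in livers and 1.54 ± 1.08 in tumors (log2 fold change −1.33 ± 0.40 SE, limma adjusted p = 0.0224), and 7 of the 12 tumors lay within the range of the livers. With the tag E19 its means were 1.56 scaled TPM in livers and 1.42 in tumors, and with E20 they were 9.30 and 1.70, although the tags' difference in fold change was not called (log2 −1.63, limma unadjusted p = 0.0344 and adjusted p = 0.971). Hlf, the relative of Dbp and Tef, was 20.2 ± 6.43 and 11.7 ± 4.22 (−0.76 ± 0.23, adjusted p = 0.0230). Nr1d2 had a log2 fold change of −0.93 (adjusted p = 0.169), Nfil3 of −0.69 (0.105), Bhlhe40, a further E-box repressor, of −0.44 (0.0709), and Bmal1 of 0.11 (0.845). Bhlhe41 was near 0 in both groups, at 0.279 and 0.337 scaled TPM, and was not tested. By leaving out single samples the count called varied from 0, without liver 3, to 4, without liver 1 or without tumor 2, and it was 1 without liver 2 or liver 6.

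Among 16 genes listed as clock outputs 6 were called, 5 lower and 1 higher in tumors, with a median log2 fold change of −0.70, where 9.28% of all genes were called lower and 9.77% higher and their median was −0.06. Usp2, a rhythmic ubiquitin protease, was 42.3 ± 19.2 scaled TPM in livers and 8.41 ± 5.86 in tumors (log2 fold change −2.21, limma adjusted p = 0.000626). Nr1i3, the xenobiotic receptor CAR, fell from 111 ± 53.8 to 32.05 ± 25.6 (−2.02, adjusted p = 0.00585). Por, which passes electrons to cytochrome P450 enzymes, fell from 279 ± 84.5 to 98.2 ± 55.2 (−1.61, adjusted p = 0.000581), and 11 of 12 tumors were below every liver. Tsku (−1.22, adjusted p = 0.0224) and Alas1, the first enzyme of heme synthesis (−1.06, adjusted p = 0.0242), were also lower. Rgs16, a regulator of G protein signaling, was higher (1.28, adjusted p = 0.0346).

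Glucocorticoids, which are themselves secreted with a daily rhythm, act on Per1 and on a list of 10 genes that was read beside the members. Of these 3 were called, all lower in tumors, with a median log2 fold change of −0.60 over the list, against 9.28% called lower and a median of −0.06 over all genes. Tat, a tyrosine-degrading enzyme, fell from 772 ± 309 to 272 ± 138 scaled TPM (log2 fold change −1.61, limma adjusted p = 0.00485). Tsc22d3 had a log2 fold change of −0.84 (adjusted p = 0.0305) and Klf9 of −0.76 (adjusted p = 0.0493). Without liver 1 there were 5 calls in this list, and without liver 2, 3, 4 or 5 there was 1.

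Markers of other cell types moved with the groups too. The summed level of 5 stellate cell and fibroblast genes was 10.4 to 18.2 scaled TPM in livers and 14.1 to 97.5 in tumors, with Col1a1 and Col3a1 higher and Lrat and Des lower in tumors. The summed level of 4 endothelial genes was 10.2 to 35.1 in livers and 17.4 to 185 in tumors, or up to 39.03 without tumor 2, with Pecam1 and Cdh5 higher. The 4 genes of dividing cells summed to 0 to 1.89 in livers and 5.02 to 22.9 in tumors, and 3 of the 3 tested were higher, while Mki67 and Ccnb1 were listed at 0 in every liver. The 4 Kupffer cell genes summed to 30.03 to 97.2 in livers and 2.53 to 60.1 in tumors, with Clec4f lower. The 4 cholangiocyte genes summed to 3.16 to 10.3 and 3.48 to 15.4, and the 4 leukocyte genes to 8.45 to 16.8 and 3.80 to 18.3. The part of these cells in the differences of Ciart, Tef and Npas2 was not tested.

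The tag in the sample names moved with the period genes. In a fit of group and tag, made after the values were seen, Per1, Per2, Per3 and Cry2 were higher in E20 than in E19 samples. That is 4 of the 10 members, all higher, where 21.1% of the 11708 genes tested were called, 13.3% higher and 7.81% lower. The share of members that were higher thus lies above the background of its direction, with the call of Cry2 unstable, as given below. The other lists did not show this. There 1 of 14 other clock genes, 1 of 16 clock output genes and 1 of 10 glucocorticoid-responsive genes were called, each higher. None of the other 6 members was called in this fit, with log2 differences from −0.39 for Cry1 to 0.54 for Tef. Of the cell type markers Hnf4a (log2 difference 0.42, limma adjusted p = 0.0223) and Stab2 (1.13, adjusted p = 0.035) were also higher in E20 samples and Cdk1 was lower (−0.96, adjusted p = 0.026), and their part in the members' differences was not tested.

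**Figure D3:**
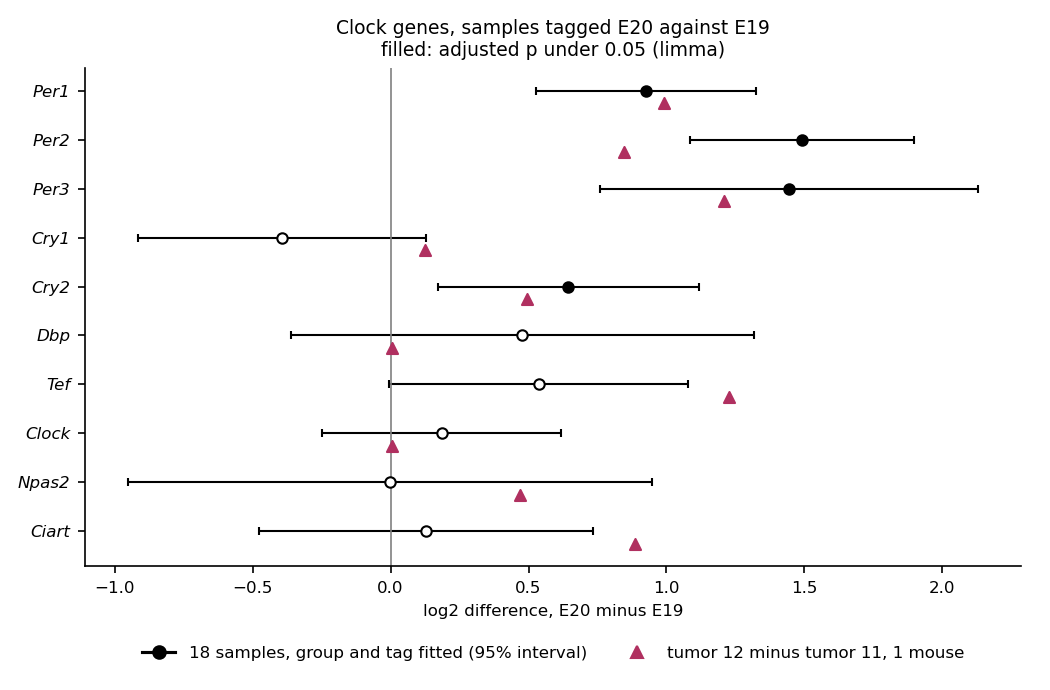
Log2 difference of each clock gene between samples tagged E20 and E19, with its 95% interval from the fit of group and tag on 18 samples (circles, filled at an adjusted p under 0.05) and, as triangles, tumor 12 (E20) minus tumor 11 (E19) of 1 mouse. Per1, Per2, Per3 and Cry2 have filled circles. No member's triangle lies below 0, those of Dbp and Clock are at 0.0049 and 0.0063, and the largest is that of Tef. Both tumors are also among the 18 samples.

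Per2 had the strongest difference, 1.49 ± 0.19 on the log2 scale (SE, limma adjusted p = 5.5e-05). The 2 livers tagged E19 had 3.35 and 4.02 scaled TPM and the 4 livers tagged E20 had 9.38, 9.48, 10.4 and 13.9, so the tags did not overlap. In tumors Per2 ran from 2.56 to 8.41 with E19 (median 3.80, n = 7) and was 7.64, 11.9, 15.4, 18.9 and 19.1 with E20, and only tumor 7 (E19), at 8.41, exceeded an E20 tumor. Per1 differed by 0.92 ± 0.19 (SE, limma adjusted p = 0.00231), but was not called without scaling between samples (0.87, limma adjusted p = 0.068). All 5 E20 tumors, from 13.6 to 30.8 scaled TPM, were above all 7 E19 tumors, from 6.33 to 12.0. In livers the tags overlapped, since liver 6 (E20) had 10.3 and liver 4 (E19) had 14.1.

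Per3 differed by 1.45 ± 0.33 (SE, limma adjusted p = 0.00463), with 1.27 to 10.8 scaled TPM in E19 tumors (median 2.37) and 4.24 to 21.1 in E20 tumors (median 14.5). In livers it was 3.35 and 7.03 with E19 and 7.51 to 17.6 with E20. Cry2 differed by 0.64 ± 0.23 (SE, limma adjusted p = 0.0487), and this call was lost when any of 14 of the 18 samples was left out, with adjusted p up to 0.0876, and also without scaling (0.59, limma adjusted p = 0.266). In tumors alone limma called the same 4 of the 9 members tested, all higher in E20, where 8.63% of the 11188 genes tested were called higher (11.7% in either direction), with log2 differences of 1.05 for Per1, 1.57 for Per2, 1.56 for Per3 and 0.97 for Cry2. In livers alone, with 2 against 4 samples, it called 0 members and 0.0169% of all genes, at log2 differences of 0.65, 1.32, 1.19 and −0.06.

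Whether the difference between tumors and livers itself varied with the tag was tested by an interaction term, which limma called for 0 members, where 0.0% of all genes were called. At an unadjusted p under 0.05 there were 348 genes and 1 member, Cry2 (log2 difference 1.02, 95% interval 0.10 to 1.95, unadjusted p = 0.0319 and adjusted p = 0.971 by limma). The number of genes above 0 moved with the tag as well, and its part in the differences of the period genes was not tested.

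Tumors 11 and 12, from 1 mouse but with different tags, give a comparison within an animal. Per1 was 6.33 scaled TPM in tumor 11 (E19) and 13.6 in tumor 12 (E20). Per2 was 3.80 and 7.64, Per3 1.27 and 4.24, Cry2 6.33 and 9.33, and Tef 21.5 and 51.8. All 5 were thus higher in tumor 12, by log2 differences from 0.49 for Cry2 to 1.23 for Tef. The median absolute difference over all 66 tumor pairs was 0.69 for Per1, 1.02 for Per2 and 1.12 for Per3. For Cry2 it was 0.61 and for Tef 0.71. The differences of Per2, at 0.85, and Cry2 thus lay below the median of all pairs and the others above it. Dbp was 2.53 and 2.55, Clock 12.7 in both and Bmal1 10.1 and 10.2 scaled TPM, from deposited values of 2 and 3, 10 and 15, and 8 and 12 TPM, so whole-number rounding limits how close these tumors can be said to be. Npas2 was 10.1 and 14.4, Cry1 was 13.9 and 15.3, and Ciart was 0 and 0.848. With 1 such mouse these are descriptions.

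Pairs of members were then correlated across tumors, with tumors 11 and 12 averaged so that each of 11 mice counts once. Of the 45 pairs 13 had an adjusted p under 0.05 by a two-sided permutation test, 8 with a positive and 5 with a negative correlation. The share of such pairs among genes outside the list was not computed, so this count does not set the members apart. Over all genes tested, 11.4% had an r of at least 0.5 with Per3, 2.13% with Dbp and 2.84% with Npas2. Dbp, Tef and Per3 went up and down together and Cry1 went against all 3, while Npas2 went with Cry1 and against Dbp and Ciart. Over all tumors without tumor 3 and the averaged tumors 11 and 12, Cry1 had r = −0.70 with Dbp and −0.65 with Tef. In E19 tumors these were −0.68 and −0.67 (exact permutation p = 0.0522 and 0.0972), and 0.16 and −0.14 without tumors 7 and 10. Per3 with Tef had r = 0.80 over all tumors without tumors 6 and 8. In E19 tumors it was 0.83, and 0.18 without tumors 7 and 11. Npas2 with Ciart had r = −0.75 and rho = −0.63 (permutation p = 0.00784 and 0.0433, adjusted p = 0.0294 and 0.0947). Without tumors 6 and 7 r was −0.55 (exact permutation p = 0.122), and in E19 tumors it was −0.66 (exact permutation p = 0.135). Ciart was 0, 1 or 2 deposited TPM in tumors, so rounding limits this pair. Per1, Per2 and Cry2, all higher with the tag E20, were positively correlated over all tumors, but in E19 tumors r was 0.54 for Per1 with Per2 (exact permutation p = 0.216) and 0.41 for Per2 with Cry2 (exact permutation p = 0.358).

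**Figure D4:**
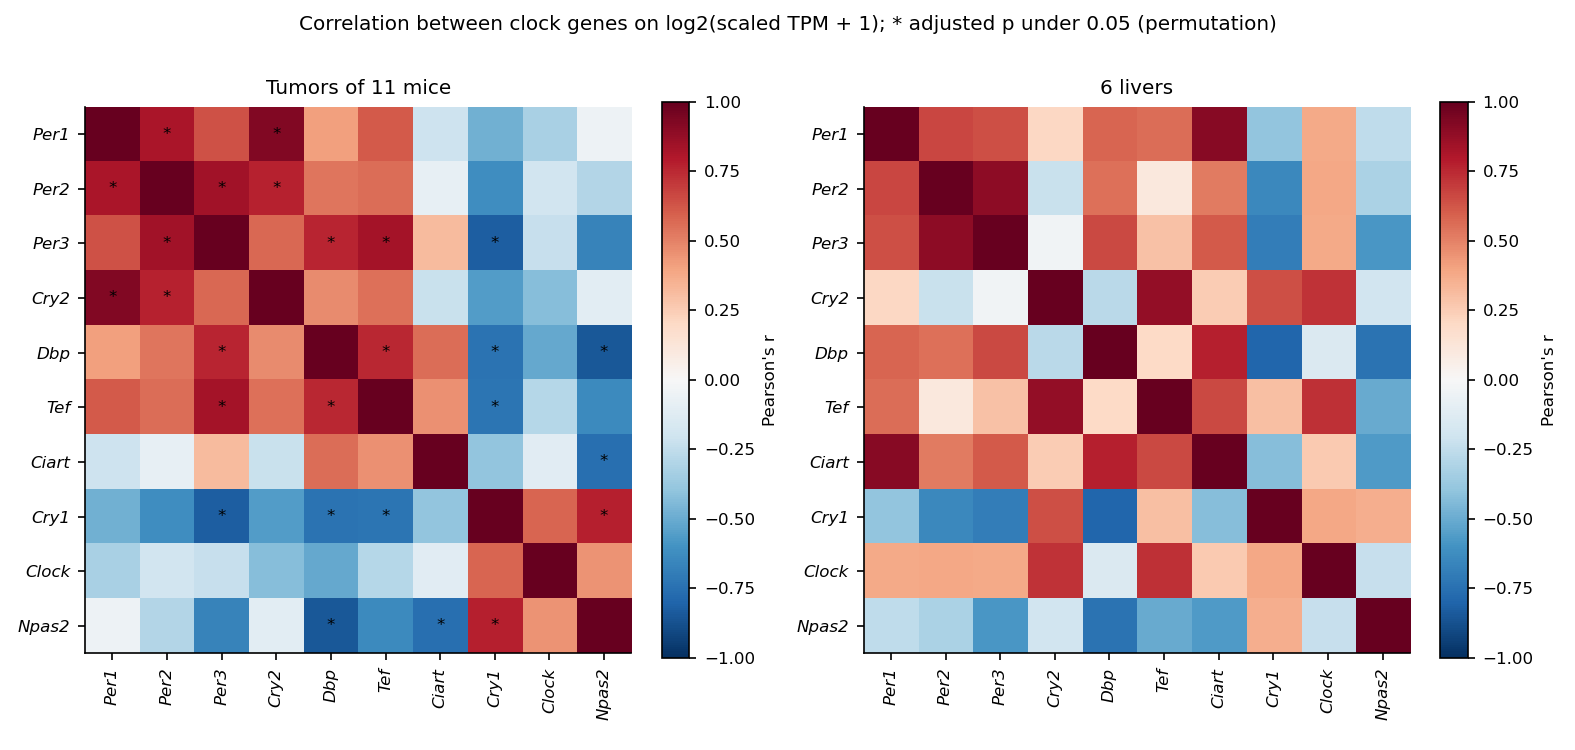
Pearson's r between members on log2(scaled TPM + 1) across tumors of 11 mice (left) and across 6 livers (right), with red for positive and blue for negative values. Stars mark an adjusted p under 0.05 by permutation, which 13 of 45 pairs reach in tumors and 0 in livers.

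The most negative pair was Npas2 with Dbp (r = −0.85, rho = −0.72, permutation p = 0.00121 and 0.0165, adjusted p = 0.0181 and 0.0495, n = 11). In the 7 tumors tagged E19 r was −0.90 (exact permutation p = 0.0226, adjusted p = 0.0679), and −0.125 without tumors 7 and 10 (exact permutation p = 0.808). Over all tumors, without tumors 6 and 7, the 2 farthest from the median of Dbp, r was −0.57 (exact permutation p = 0.108), so the relation rests on those tumors. Dbp and Tef had r = 0.75 and rho = 0.89 (permutation p = 0.0061 and 0.00054, adjusted p = 0.025 and 0.0121). Here r was 0.83 in E19 tumors (exact permutation p = 0.0103, adjusted p = 0.0508), and 0.60 there without tumors 7 and 10 (exact permutation p = 0.317). Over all tumors without tumors 6 and 7 it was 0.90 (exact permutation p = 0.00089).

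Per3 and Cry1 had r = −0.82 and rho = −0.87 (permutation p = 0.0032 and 0.00105, adjusted p = 0.0206 and 0.0124). In E19 tumors r was −0.79 (exact permutation p = 0.0141, adjusted p = 0.0508), and without tumors 6 and 8 it was −0.69 (exact permutation p = 0.0423). Cry1 and Npas2 had r = 0.78 and rho = 0.81 (permutation p = 0.00543 and 0.00409, adjusted p = 0.025 and 0.0263), with r = 0.85 in E19 tumors (exact permutation p = 0.0121, adjusted p = 0.0508), which became 0.26 without tumors 7 and 10 (exact permutation p = 0.675), and over all tumors 0.77 without tumor 3 and the averaged tumors 11 and 12 (exact permutation p = 0.0176). The largest r of all was that of Per1 with Cry2 (r = 0.93, rho = 0.89, permutation p = 8e-05 and 0.00038, adjusted p = 0.0036 and 0.0121). It was 0.88 without tumors 2 and 8 (exact permutation p = 0.00139) and 0.70 in E19 tumors (exact permutation p = 0.0766, adjusted p = 0.15). In E19 tumors without tumors 4 and 7 it was −0.18 (exact permutation p = 0.8). The 5 E20 tumors are too few to be correlated alone.

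In E19 tumors alone 2 of the 45 pairs were called. These were Per1 with Ciart (r = 0.91, exact permutation p = 0.000794, adjusted p = 0.0357) and Per3 with Npas2 (r = −0.97, exact permutation p = 0.00198, adjusted p = 0.0446). Over all tumors Per1 with Ciart had r = −0.21 (permutation p = 0.532), and in E19 tumors without tumors 4 and 7 it was 0.75 (exact permutation p = 0.217). Per3 with Npas2 had r = −0.67 over all tumors (permutation p = 0.0266, adjusted p = 0.0855) and −0.89 in E19 tumors without tumors 7 and 11 (exact permutation p = 0.0833). Leaving out tumor 2 raised the number called over all tumors to 22, and leaving out the 2 tumors farthest from the median of the first gene of each pair lowered it to 7. Across the 6 livers 0 pairs were called and 4 had an unadjusted p under 0.05 by the exact permutation test over 720 pairings. The smallest p these pairings allow is 0.00139, which is 0.0625 for a single pair after adjustment over 45, so the count of 0 says little about whether these relations hold in livers. The lowest of these was Per2 with Per3 (r = 0.89, rho = 1.0, exact permutation p = 0.00417 and 0.00278, adjusted p = 0.188 and 0.125), and without livers 4 and 5 r was 0.77. Npas2 and Dbp had r = −0.74 in livers and Cry1 and Dbp −0.79, and Tef and Dbp had r = 0.20, none of them called.

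The genes whose pattern across the tumors of the 11 mice was most like that of Npas2, Dbp and Per3 were looked up among all 11707 other genes tested, as a description. Of all these genes Bmal1, the partner of NPAS2, was the one most like Npas2, with r = 0.96, and it had r = 0.96 in E19 tumors and 0.91 without tumors 6 and 7. In the 6 livers, where Npas2 was 0 to 2 deposited TPM, r was 0.45. The next were Clpx (r = 0.89, livers 0.71), Ddx52 (0.88, livers 0.52), Ybx1 (0.86, livers −0.37) and Spon2 (0.86, livers 0.73). At the other end, Dbp ranked 3rd, Nr1d1 4th and Nr1d2 9th from the lowest r with Npas2, at −0.85, −0.82 and −0.80. Of all genes 2.84% had an r of at least 0.5 with Npas2.

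For Dbp the 5 most alike were Tmem104 (r = 0.86), Per3 (0.76), Txndc11 (0.76), Tef (0.75) and Rsc1a1 (0.75), leaving out unnamed Gm and Rik genes. In livers their r was 0.43, 0.66, 0.41, 0.20 and 0.00. Without tumors 6 and 7 the r of Tmem104 was 0.18 while those of Per3 and Tef were 0.90 and 0.90. Npas2 and Bmal1 were the 1st and the 3rd from the lowest of all genes in their r with Dbp (−0.85 and −0.84). Among the most alike for Per3 were Cpsf6 (r = 0.91, livers 0.87), Rasal2 (0.87, livers 0.33), Phf11c (0.86, livers 0.69) and Erc1 (0.86, livers 0.78). Per2 ranked 14th and Tef 21st. An r of at least 0.5 with Per3 was common, at 11.4% of all genes, against 2.13% for Dbp.

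**Figure D5:**
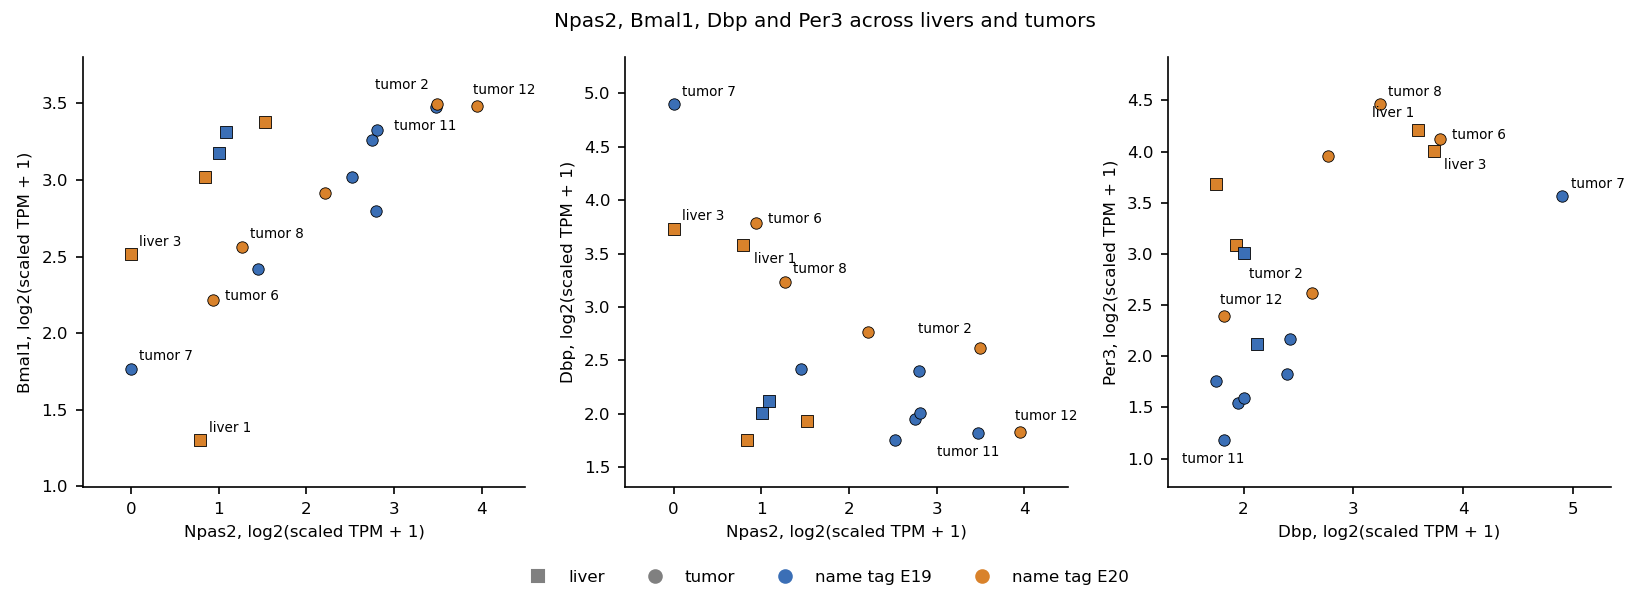
Npas2 against Bmal1 (left), Npas2 against Dbp (middle) and Dbp against Per3 (right) as log2(scaled TPM + 1), with squares for 6 livers and circles for 12 tumors, blue for the name tag E19 and orange for E20. Tumors 6, 7 and 8 sit at low Npas2 and Bmal1 and at high Dbp, tumor 10 at low Npas2 and Bmal1 without high Dbp or Per3, tumors 11 and 12 at high Npas2 and low Dbp, and livers lie at low Npas2 whatever their Bmal1.

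Single samples show how these genes went together. Tumor 7 combined the highest Dbp of all samples (28.9 scaled TPM) with Npas2 at 0 and Bmal1 at 2.40, and tumors 6 and 8 had Dbp at 12.8 and 8.43, Npas2 at 0.911 and 1.40 and Bmal1 at 3.65 and 4.92. Tumor 7 carries the tag E19 and tumors 6 and 8 carry E20. Tumors 11 and 12 had Dbp at 2.53 and 2.55, Npas2 at 10.1 and 14.4 and Bmal1 at 10.1 and 10.2. Tumor 10 departed from this order, with Npas2 at 1.74, Bmal1 at 4.35, Dbp at 4.35 and Per3 at 3.48. In livers, liver 1 combined the lowest Cry1 (2.93), Bmal1 (1.46) and Nfil3 (3.66) with the highest Per2 (13.9), Per3 (17.6) and Nr1d1 (18.3), and liver 3 had the highest Dbp (12.3) with Npas2 at 0. Liver 2 had Bmal1 at 9.38, Cry1 at 17.8 and Dbp at 2.82.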

How the data were processed

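Poly-A RNA of 6 livers and 12 tumors of Alb-R26Met mice was sequenced. The authors aligned paired-end reads to GRCm38 and quantified genes with Salmon 1.10.2. They deposited a whole-number score per gene, read here as rounded TPM. Of 1008 values that the study lists as TPM, 990 equal these scores after rounding. The study calls the RNA-seq values it reports for each sample raw counts, a wording from which this reading departs. Read depth per value is unknown and no counting interval is given. Samples were grouped by their titles. For tumors 3 and 10 the mouse number in the label differs by digits from the one the study lists. Their values were matched by tumor number and tag. The members and gene lists were chosen with earlier results of these data known. The genes named are all members, list genes with an adjusted p under 0.05, 7 further clock genes, and the 5 genes most like each of Dbp, Per3 and Npas2, of which 1 is not reported here.

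Values were divided by a factor from the sample total and an unweighted trimmed mean of M values (30% of M and 5% of A values trimmed), and genes with at least 1 scaled TPM in at least 6 samples were kept. On log2 values with a pseudocount of 1, limma 3.58.1 in R 4.3.3 was fitted with a trend in the prior variance, and p-values were adjusted by Benjamini and Hochberg over all genes tested. The fit was tested on simulated data. Correlations used 100000 permutations for 11 mice and all orders for fewer than 10 samples, two-sided, and were adjusted over 45 pairs. Samples came from separate mice except tumors 11 and 12, which the tests between groups treat as separate samples. Python 3.11.15, numpy 2.4.6, pandas 2.3.3 and matplotlib 3.10.9 were used. Alternatives covered scaling, filter, pseudocount, covariates, weights, a replicate block and single samples left out, and the comparison of tags with its alternatives was added after the values were seen, as was the trimmed mean factor without sample totals. Gene positions and promoters are those of RefSeq.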

Additional observations from a re-analysis of the deposited data

Results flagged for a closer look

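Among the members and the other clock, output and glucocorticoid genes named, 26 were searched for a liver that stood far from the other 5, by the ratio of its gap to the range of the group (critical value 0.625), and chance gives about 1 in 20. Nfil3 in livers was marked (ratio 0.659), with liver 1 at 3.66 scaled TPM and the others at 18.2 to 25.7. Klf9 was marked (0.717), with liver 1 at 24.9 and the others at 62.6 to 77.4, and Alas1 (0.692), with liver 3 at 280.5 and the others at 62.4 to 129.5. None of the 10 members was marked, and tumors, being 12, were not searched.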

How the results depend on the processing

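The number of members that differed between tumors and livers, 3, was 0 in E19 samples alone and 1 in E20 samples alone, where 13.6% and 4.81% of all genes were called, and 2 to 4 when single samples were left out. Of the other clock genes, 2 at first, 1 was called without scaling, with a filter at 5 scaled TPM and with the replicate block, 0 in E20 samples alone and in the 12 samples of the block fitted without it, 6 with sample quality weights, and 0 to 4 when samples were left out. Of the clock output genes, 6 at first, 3 were called in E19 and 2 in E20 samples alone (4 to 7 with samples left out). Of the glucocorticoid-responsive genes, 3 at first, 1 was called without scaling, with the block and in the same 12 samples without it, 7 with quality weights, 0 in E20 samples alone, and 1 to 5 with samples left out. Members differing between tags, 4, became 2 without scaling and 0 in livers alone (3 to 4 with samples left out). The 13 pairs correlated across tumors became 2 in E19 tumors, 7 without the 2 samples farthest from the median, and 9 to 22 with samples left out. In livers 0 pairs were called, which says little, since a single pair cannot pass the adjustment with 6 livers or, at a smallest p of 0.00833, with 5. The counts of members for spread and interaction stayed at 0 in all settings tried.

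Directions turned for members that were not called. The log2 fold change of Per2 became 0.25 with the tag as a covariate, 0.14 with the replicate block and in the same 12 samples without it, 0.10 in E19 and 0.35 in E20 samples (−0.32 to 0.036 with samples left out). That of Dbp became −0.037 without scaling, −0.019 with age as a covariate and −0.042 with the block and without it in the same samples (−0.10 to 0.34 with samples left out). In E20 samples alone Per1 became 0.078 and Cry2 0.13, in E19 samples alone Clock became 0.027, and Cry1 ranged from −0.45 to 0.0040 with samples left out. The tag difference of Cry2 became −0.058 in livers alone. The causes of these changes were not tested, beyond the smaller number of samples in each tag alone. Replicate numbers do not pair the samples: deviations of livers and tumors with the same number correlated by −0.14 to 0.45 (mean 0.18), and the block called 3 members, as did the same samples without it. The call of Ciart could not be computed at a filter of 5 scaled TPM. Rounded TPM limit Ciart in tumors and Npas2 in livers most, where 1 TPM is the smallest step.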
